A study of Mus musculus with 26 samples.

Results

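The 8 arrays described here are those of sham-operated mouse hearts, 4 taken 10 d and 4 taken 48 h after surgery, out of 26 arrays in all. They were chosen by their titles alone. The series compares mice with transverse aortic constriction (TAC), in which a suture narrows the aorta and loads the left ventricle, with sham mice, which have the operation without the narrowing, at 48 h, 10 d and 3 wk. The groups used are the sham 10 d arrays (4) and the sham 48 h arrays (4), and beside them the TAC arrays at 10 d (4) and at 48 h (5) and the sham arrays at 3 wk (4). All were labelled mouse heart and total RNA. The labels used here give no strain, sex, age or chamber, and do not say whether 1 array is 1 animal, so that the tests below measure the spread between arrays, which may be technical. The heart label was borne out on all 8 arrays: Myh6, Actc1, Tnnt2, Tnni3, Mb and Myl2, genes of cardiac contraction and oxygen storage, lay between the 98.01st and the 100th percentile of each array.

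A sham operation opens the chest under anaesthesia. Stress hormones and inflammation rise after such surgery, and the wound heals over the days that follow. The heart itself runs mainly on fatty acids, whose use is set by the nuclear receptor Ppara, with glycolysis as a reserve that the hypoxia-inducible factor Hif1a raises. Cardiomyocytes under strain or stress make natriuretic peptides and immediate early factors, and their fibroblasts lay down matrix.

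Time after surgery coincided with the day of the array scan. The 4 sham 10 d arrays carried 1 scan day and 1 chip lot. The 4 sham 48 h arrays carried 1 other scan day, 546 d later, with the scanner type named in their files and no chip lot. No scan day held sham arrays of both times, so no within-day value exists, and time and scan day cannot be told apart in any sham value below. In bulk tissue, fewer cells of a type and less RNA per cell cannot be told apart either. Array medians were 895 to 915 intensity units at 10 d and 742 to 818 at 48 h, although the trimmed mean was 2502 on every array to the nearest unit. The bacterial transcripts that are spiked into each hybridisation, which no heart makes, also differed between the groups. On the log2 scale bioB averaged 12.24 ± 0.27 at 10 d and 11.24 ± 0.20 at 48 h, bioC 13.55 ± 0.31 and 12.48 ± 0.16, bioD 15.03 ± 0.27 and 13.67 ± 0.15, and cre 16.57 ± 0.43 and 15.91 ± 0.13 (SD, n = 4 each). Each was higher at 10 d on all 4 arrays (two-sided exact permutation test, p = 0.0286, the smallest that 70 splits allow; 0.0429 after Benjamini-Hochberg adjustment over 6 measures). The 3' minus 5' signal, a measure of RNA integrity, differed by 0.06 for Gapdh (exact p = 0.4) and 0.25 for Actb (exact p = 0.143). Pairs of sham 10 d arrays correlated at 0.941 to 0.954, pairs of sham 48 h arrays at 0.953 to 0.961, and pairs across the times at 0.912 to 0.932 over probe sets.

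Of 7297 probe sets tested, 1580 (21.7%) were called at an adjusted p below 0.05 (limma, Benjamini-Hochberg), 835 higher (11.4%) and 745 lower (10.2%) at 10 d. Of the calls, 899 changed at least 1.5-fold (555 higher, 344 lower), and 294 at least 2-fold (223 higher, 71 lower). The median log2 change was 0.05 over all probe sets, and the median size of a called change was 0.63, against a median SD of 0.22 within the 10 d group and 0.23 within the 48 h group. The 10 d and 48 h values did not overlap for 1299 of the 1580 called probe sets, and for 25.2% of all tested. Where each array is centred on its own median, 1911 probe sets were called, 383 higher and 1528 lower, and the median of all probe sets moved to -0.16. Under quantile normalization 710 were called higher and 730 lower, and under loess normalization 767 and 789. The near balance of rises and falls thus holds on the authors' scaling and those 2, and not under median centring. Taking 1 probe set a gene, 1223 of 5564 genes (22%) were called, 597 higher (10.7%) and 626 lower (11.3%). The direction went with signal: of the 1825 probe sets with the lowest signal 185 were called higher and 44 lower, and of the 1824 with the highest 226 were called higher and 400 lower.

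**Figure D1:**
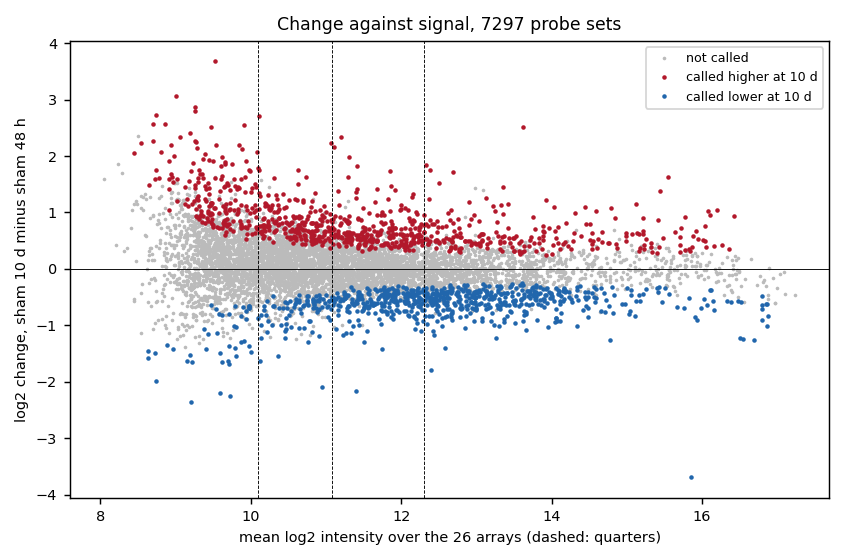
Each point is 1 of 7297 probe sets, with its mean log2 intensity over 26 arrays on the x axis and its log2 change, sham 10 d minus sham 48 h, on the y axis; dashed lines divide 4 bins of signal of 1824 or 1825 each. Called rises (red) outnumber falls (blue) 185 to 44 in the lowest bin, and falls outnumber rises 400 to 226 in the highest.

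Among called genes whose arrays did not overlap between the times, which is how they were picked, the 12 largest rises ran over 4.39-fold to 6.92-fold and the 12 largest falls over 2.67-fold to 4.28-fold. The rise measured with the smallest error was that of Ppara, the nuclear receptor that switches on fatty acid oxidation genes. Its log2 intensity was 12.06, 12.10, 12.27 and 12.61 on the 10 d arrays, against 9.91, 10.12, 9.96 and 10.13 on the 48 h arrays. Every 10 d array lay above every 48 h array, and the log2 change was 2.23 (SE 0.16, adjusted p = 7.39e-10). Ptprb, the receptor phosphatase of vascular endothelium, read 11.48, 11.22, 11.30 and 11.30 at 10 d and 9.32, 9.24, 8.46 and 7.44 at 48 h, a log2 change of 2.71 (SE 0.40, adjusted p = 3.26e-05). Its 48 h arrays were the scattered ones. Mef2c, a transcription factor of muscle gene expression, read 11.42, 10.86, 11.12 and 11.37 at 10 d and 8.87, 9.45, 8.20 and 8.09 at 48 h, a log2 change of 2.54 (SE 0.42, adjusted p = 1.09e-04). Mef2c has 3 further probe sets in the test, and 2 of them were also called higher while the other changed by -0.18 (adjusted p = 0.629). The 2 called ones are numbered next to the representing one on the array, and whether they share probes was not tested. They averaged 7.71 and 7.69 at 48 h, near the floor of 7.39 (log2) set on all values. Nr4a1, an immediate early nuclear receptor, read 12.38, 11.85, 12.26 and 12.12 at 10 d and 10.07, 10.02, 9.89 and 9.32 at 48 h, a log2 change of 2.33 (SE 0.42, adjusted p = 3.26e-04). Of the 4 genes just given, none had arrays that overlapped between the times.

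Fmnl1, a formin of leukocytes that shapes actin, changed by 2.41 (log2), Mau2, a loader of cohesin onto DNA, by 2.27, and Il6ra, the interleukin-6 receptor chain, by 2.19. The other 5 rises were Mob2, a regulator of NDR kinases (2.79), Mup5, a major urinary protein known from liver (2.72), St8sia5, a sialyltransferase of ganglioside synthesis (2.35), Pde6b, the phosphodiesterase of rod photoreceptors (2.28), and Pam, the peptide-amidating enzyme abundant in atrium (2.13). These 5 had 2 or 3 of the 4 arrays at 48 h at the floor of 167.9 intensity units, so their size depends on that floor. With a floor at the 40th percentile the calls of Mob2 (1.26, adjusted p = 0.102) and Pam (0.57, adjusted p = 0.285) were lost. With that floor the changes of Mup5 (1.29), St8sia5 (1.33), Pde6b (0.82), Fmnl1 (1.68), Mau2 (1.63) and Il6ra (1.26) were smaller but called. A probe set was tested if it lay above 880.1 intensity units in at least 4 arrays. Among the groups used here, Mup5, Pde6b, St8sia5 and Fmnl1 lay above that level only on 10 d arrays, sham or TAC. Their entry to the test may thus rest on the time at which they were high. The probe sets of Mup5 and Pde6b carry a suffix by which the array maker marks probes shared within a family of like sequences, and that of Mob2 one that marks probes failing a design rule. Among genes below, the family suffix is also carried by Plg, Cox6c, Uqcrc2, Cryab, Tnnc2, Psmd12, Rps28, Rpl41, Atf3 and Thbd. The suffix of Mob2 is also that of Vav1, Comtd1 and Lcn2.

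**Figure D2:**
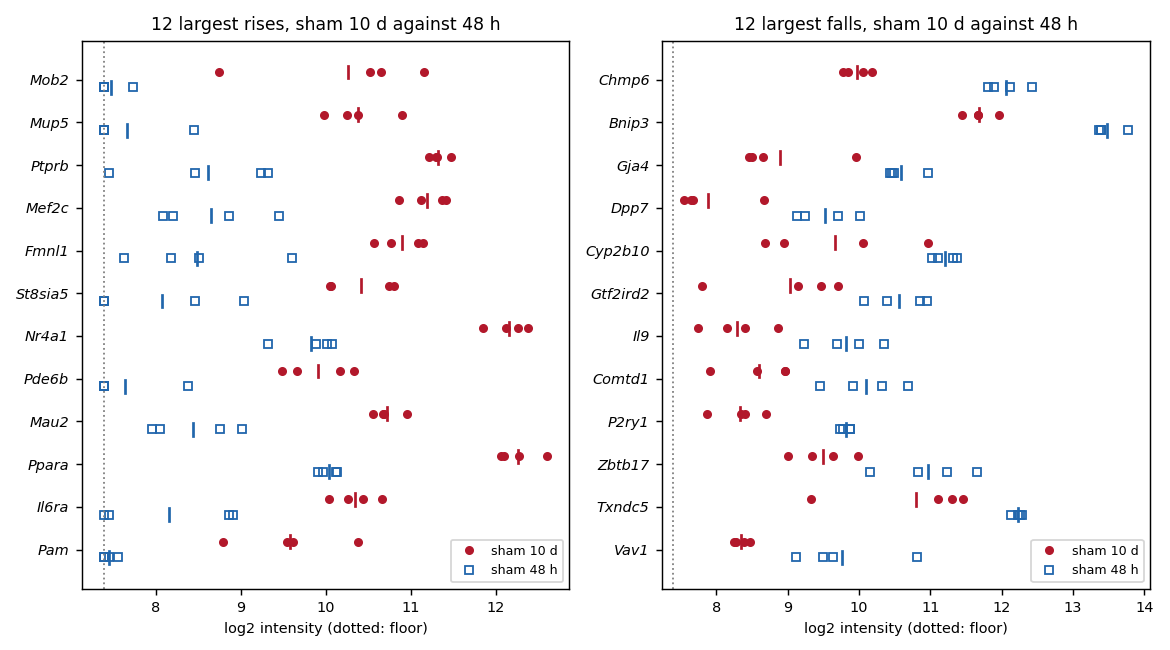
Log2 intensity of the 12 largest rises (left) and the 12 largest falls (right), 1 point per array and a bar at the group mean; red circles are sham 10 d, blue squares sham 48 h, and the dotted line is the floor. In every row the 2 groups do not overlap, and several 48 h values of the rises sit on the floor.

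The fall measured with the smallest error was that of Bnip3, a mitochondrial protein of mitophagy and cell death that hypoxia induces. Its log2 intensity was 11.66, 11.96, 11.45 and 11.67 at 10 d, against 13.77, 13.40, 13.39 and 13.37 at 48 h, a log2 change of -1.80 (SE 0.17, adjusted p = 7.14e-08). The gap between the groups was wider than the range within either. Chmp6, a subunit of the ESCRT-III complex that sorts proteins into multivesicular bodies, read 10.06, 10.18, 9.85 and 9.77 at 10 d and 12.42, 12.12, 11.89 and 11.81 at 48 h, a log2 change of -2.10 (SE 0.25, adjusted p = 2.62e-06). Falls that stayed called whichever of the 8 arrays was left out were also seen for Dpp7, a lysosomal peptidase (-1.64), Il9, a cytokine of T cells and mast cells (-1.52), P2ry1, an ADP receptor (-1.49), and Zbtb17, a transcription factor that partners Myc (-1.47). With the floor at the 40th percentile Dpp7 lost its call (-0.43, adjusted p = 0.283), and Il9 (-0.73) and P2ry1 (-0.72) were smaller but called. Among the groups used here, Il9 and, below, Vav1 lay above the filter level only on 48 h arrays, sham or TAC.

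The remaining 6 falls lost their call when certain single arrays were left out. Txndc5, a disulfide isomerase of the endoplasmic reticulum, changed by -1.42 and was not called without sham 10 d replicate 1 (adjusted p = 0.0631), whose 9.33 stood below the other three at 11.1 to 11.46. Vav1, a guanine nucleotide exchange factor of blood cells, changed by -1.42 and was not called without sham 48 h replicate 1 (adjusted p = 0.0906) or with the 40th percentile floor (-0.68, adjusted p = 0.0908). Gja4, the endothelial connexin 37 gene, changed by -1.69 and was lost on leaving out any of 7 of the 8 arrays (adjusted p up to 0.0818); it stayed called only without sham 10 d replicate 3. Cyp2b10, a cytochrome of drug metabolism (-1.54), was lost without sham 10 d replicate 1, sham 10 d replicate 4 or sham 48 h replicate 1 (adjusted p up to 0.0962). Gtf2ird2 (-1.53) was lost without sham 10 d replicate 2, sham 48 h replicate 3 or sham 48 h replicate 4 (adjusted p up to 0.121). Comtd1 (-1.49) was lost without sham 10 d replicate 1 or 4, or sham 48 h replicate 1 or 3 (adjusted p up to 0.0894).

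Glucose-handling genes fell more often than they rose. Of 22 genes of glycolysis and glucose uptake tested, 7 were called lower and 3 higher, beside 11.3% and 10.7% of all genes called in those directions. The list's median log2 change was -0.12, against 0.04 over all genes. Under quantile, loess and median scaling it was -0.10, -0.05 and -0.33, where the median of all probe sets was -0.01, -0.01 and -0.16. Bright probe sets fell more often in general: of the 1824 with the highest signal, 400 were called lower and 226 higher. Aldoa, Pfkm and Hk1 are among these, and the part of signal in the list's split was not tested. Aldoa, the aldolase of muscle, read 15.96, 15.31, 16.46 and 15.81 at 10 d and 17.71, 17.21, 16.98 and 16.64 at 48 h. Every 10 d value was below every 48 h value, the log2 change was -1.25 (SE 0.30, adjusted p = 0.00425), and its probe set carries the family suffix. The other Aldoa probe set changed by 0.15 and was not called (adjusted p = 0.454). Pdk1, the kinase that shuts off pyruvate dehydrogenase, changed by -0.58 and was not called without sham 10 d replicate 1 (adjusted p = 0.0528). Pfkm, the phosphofructokinase of muscle, rose by 0.68 (log2; SE 0.12, adjusted p = 3.54e-04). Hk1, a hexokinase, changed by 0.77 and was lost without sham 10 d replicate 1, sham 48 h replicate 3 or sham 48 h replicate 4 (adjusted p up to 0.0620) and under median centring (adjusted p = 0.0872).

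Some genes that lie outside the rule for naming genes were picked after their values were seen. Hif1a, the factor that drives hypoxia-responsive transcription, read 12.81, 13.03, 12.96 and 12.96 at 10 d and 13.85, 13.77, 14.00 and 13.90 at 48 h, a log2 change of -0.94 (SE 0.14, adjusted p = 4.4e-05). Its other probe set changed by -1.23 (adjusted p = 8.01e-06), and both carry the family suffix. Both are also numbered next to each other on the array, and whether they share probes was not tested. Ldha, the muscle form of lactate dehydrogenase, changed by -0.37 (SE 0.09, adjusted p = 0.00553). Pkm, pyruvate kinase, changed by -0.57 (SE 0.18) and was lost without sham 10 d replicate 2, sham 10 d replicate 4 or sham 48 h replicate 1 (adjusted p up to 0.0894). Its other probe set changed by 0.41 and was not called. Mb, myoglobin, the oxygen store of muscle, read 16.26, 16.04, 16.39 and 16.21 at 10 d and 17.79, 17.45, 17.51 and 17.16 at 48 h, a log2 change of -1.25 (SE 0.18, adjusted p = 1.84e-05). All 4 of these genes were lower at 10 d by their representing probe sets, which carries no weight as a pattern because they were picked with their values known. Ldha and Pkm are also among the glucose-handling genes called lower that were counted above. The calls of Hif1a, Ldha and Mb stayed whichever array was left out.

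The letters ACGTG are the core of the sequence that hypoxia-inducible factors bind, and they are also part of CACGTG, an E-box that clock and Myc-type factors bind. RefSeq promoter windows (GRCm38.p6, 250 bases before to 50 after each start) were searched for ACGTG on both strands for the 7 glucose-handling genes called lower, Bnip3 and Hif1a. Of these 9 genes, which were picked by their falls, 6 had the letters in at least 1 window, as did 21.8% of the 27025 genes in the table. The difference was not tested. Glucose-handling genes that rose or were not called were not searched. Glycolysis and Bnip3 are tied to hypoxia to begin with, as said above, so a high share would be likely whatever the arrays show. A gene with several windows, such as Aldoa with 3, also has more chances of a match. Over single windows the share was 19.6% of 32851 for ACGTG and 7.15% for CACGTG. The windows below belong to falls just described that had a match. Of the 9 genes, Pdk1, Pfkl and Gys1 had no match in any window, and Hif1a and Ugp2 had a match that is not shown. Each is the gene's window with the most matches, printed 5′ to 3′ on the gene's strand with ACGTG or its complement CACGT in capitals.

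Bnip3 (chr7:138909457-138909756, minus strand): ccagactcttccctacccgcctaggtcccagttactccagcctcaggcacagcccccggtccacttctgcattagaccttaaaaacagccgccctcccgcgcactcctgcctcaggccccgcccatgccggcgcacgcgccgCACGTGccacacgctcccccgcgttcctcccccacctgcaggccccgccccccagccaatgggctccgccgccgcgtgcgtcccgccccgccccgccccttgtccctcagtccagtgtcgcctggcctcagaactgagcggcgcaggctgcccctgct
Ldha (chr7:46845554-46845853, plus strand): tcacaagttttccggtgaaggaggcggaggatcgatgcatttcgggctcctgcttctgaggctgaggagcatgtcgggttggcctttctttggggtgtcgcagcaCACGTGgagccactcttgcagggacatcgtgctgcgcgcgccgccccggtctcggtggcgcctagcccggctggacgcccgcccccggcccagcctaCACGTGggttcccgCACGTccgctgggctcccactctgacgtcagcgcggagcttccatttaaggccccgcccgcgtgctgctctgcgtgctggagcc
Aldoa (chr7:126799129-126799428, minus strand): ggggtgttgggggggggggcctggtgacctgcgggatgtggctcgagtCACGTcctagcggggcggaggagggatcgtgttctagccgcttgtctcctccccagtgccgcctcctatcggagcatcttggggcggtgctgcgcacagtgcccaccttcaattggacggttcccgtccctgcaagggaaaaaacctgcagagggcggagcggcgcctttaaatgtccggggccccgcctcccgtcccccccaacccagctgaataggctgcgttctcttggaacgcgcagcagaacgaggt
Pkm (chr9:59656977-59657276, plus strand): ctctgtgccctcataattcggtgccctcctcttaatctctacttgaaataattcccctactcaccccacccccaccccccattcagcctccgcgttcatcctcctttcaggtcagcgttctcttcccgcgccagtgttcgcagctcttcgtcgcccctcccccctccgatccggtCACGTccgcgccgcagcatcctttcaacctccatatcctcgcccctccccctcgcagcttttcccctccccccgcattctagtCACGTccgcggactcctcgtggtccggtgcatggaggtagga

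The Bnip3 window held 1 capital stretch, an E-box. The Ldha window held 3, of which 2 were E-boxes, the Aldoa window 1 and the Pkm window 2, none an E-box. A match is a description of letters and not a measured binding site.

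Fatty acid genes moved both ways: of 29 tested, 4 were called higher, Ppara among them, and 4 lower. That is 27.6% in all, beside 22% of all genes, of which 10.7% were called higher and 11.3% lower. The list's median log2 change was -0.03, 13 of the 29 changed by more than 0, and the lowest change was -0.67. The 4 members named here are all rises, because the rule takes the largest changes. Etfa, the electron carrier that takes electrons from acyl-CoA dehydrogenases, read 14.86, 14.94, 14.80 and 14.60 at 10 d and 14.04, 14.16, 13.92 and 13.90 at 48 h, a log2 change of 0.80 (SE 0.10, adjusted p = 4.41e-06). Acadl, the long-chain acyl-CoA dehydrogenase, changed by 0.99 and Pex11a, a peroxisome division factor, by 0.70, but leaving out single arrays of either group ended both calls (adjusted p up to 0.116 without 1 of sham 10 d replicates 1 and 2 or sham 48 h replicates 3 and 4 for Acadl; up to 0.0926 without 1 of sham 10 d replicates 1, 2 and 3 or sham 48 h replicates 2, 3 and 4 for Pex11a). Of 47 genes of the citric acid cycle and oxidative phosphorylation, 8 were called higher and 9 lower (36.2% in all). Within complex IV, Cox6c rose by 1.05 (SE 0.12, adjusted p = 1.16e-06) and Cox7a1 by 0.87 (SE 0.14, adjusted p = 1.08e-04). Uqcrc2, a core subunit of complex III, rose by 0.93 (SE 0.12, adjusted p = 5.29e-06). Ndufs4 of complex I fell by 0.83 on the log2 scale (adjusted p = 0.0118).

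Of 30 tested genes of the proteasome, which degrades ubiquitin-tagged proteins, and of the ubiquitin system, 9 were called lower and 1 higher. The list median was -0.17, against 0.05 over all probe sets. Under quantile, loess and median scaling it was -0.08, -0.11 and -0.38, where the median of all probe sets was -0.01, -0.01 and -0.16. In all, 33.3% of the list were called, beside 22% of all genes. The heat shock (26.9%), antioxidant (26.7%) and ribosomal (26.1%) lists below were nearer to the share of all genes. Psmb1, Psmd7 and Psmd4 are among the 1824 probe sets of highest signal, where falls outnumbered rises, and the part of signal was not tested. Psmb1, a subunit of the proteasome core, read 13.27, 13.06, 13.14 and 13.21 at 10 d and 13.78, 13.73, 13.99 and 13.97 at 48 h, a log2 change of -0.70 (SE 0.11, adjusted p = 4.1e-05), while its other probe set changed by 0.13 and was not called (adjusted p = 0.611). Psmd12 (-0.74), Psmd7 (-0.70) and Psmd4 (-0.64) of the regulatory cap fell too, each with arrays that did not overlap. Of 26 tested genes of the heat shock and endoplasmic reticulum stress responses, chaperones among them, 5 were called higher and 2 lower, with a list median of 0.28, above 0 under all 4 scalings. Hsp90aa1, the stress-inducible form of Hsp90, read 13.08, 13.26, 13.32 and 13.33 at 10 d and 12.16, 12.35, 11.62 and 11.85 at 48 h, a log2 change of 1.25 (SE 0.18, adjusted p = 2.41e-05). Pdia3, a disulfide isomerase, rose by 1.07 (SE 0.20) and Hspa8, the constitutive Hsp70, by 0.79 (SE 0.16), while Pdia6, another isomerase, fell by 0.66 on the log2 scale (SE 0.16) by 1 of its 3 probe sets, the others changing by 0.44 and -0.11. Of 30 genes of antioxidant defence, 5 were called higher and 3 lower. Sod1, the cytosolic superoxide dismutase, rose by 0.91 (SE 0.15), Cat, catalase, by 0.60 (SE 0.13), and Nfe2l2, the master regulator of that response, by 0.51 (SE 0.10), and Gstm2, a glutathione transferase, fell by 0.50 on the log2 scale (SE 0.12). The other probe sets of Cat (0.16) and Gstm2 (-1.01) were not called. Of 23 cytosolic ribosomal protein genes, 4 were called higher and 2 lower, with Rps28 at 0.77 (SE 0.12), Rps10 at 0.66 (SE 0.12), Rpl37a at 0.66 (SE 0.16) and Rpl41 at -1.01 (SE 0.29). The other 2 probe sets of Rps28 changed by -0.40 and 0.14 and were not called. These genes have many processed copies, and the probe sets may read more than 1.

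Of 17 genes that mark strained cardiomyocytes 2 were called higher and 2 lower, close to the 10.7% and 11.3% of all genes. Nppb, the B-type natriuretic peptide, read 15.87, 15.56, 16.10 and 15.50 at 10 d and 14.28, 14.89, 15.08 and 14.65 at 48 h, a log2 change of 1.03 (SE 0.21, adjusted p = 8.12e-04). Ankrd1, a stretch-responsive partner of titin, rose by 0.93 (SE 0.17, adjusted p = 2.92e-04). Both groups of arrays were apart in each. Acta1, the skeletal actin of the fetal programme, changed by -0.59 and was lost without sham 10 d replicate 2 or sham 48 h replicate 2 (adjusted p up to 0.0684), and Fhl1, a LIM protein, changed by -0.78 and was lost without sham 48 h replicate 1 (adjusted p = 0.0599), with -0.30, not called, on its other probe set. Nppa, the atrial peptide, changed by 0.68 (SE 0.62), and Myh7, the slow myosin heavy chain, by -0.12 (SE 0.23). Neither was called, and both were chosen after their values were seen, as were Fos, Egr1 and Myl7 below. Among 16 sarcomere genes 3 were called higher and 2 lower (31.2% in all, beside 22% of all genes). Tnnt1, the slow skeletal troponin T, read 11.42, 11.41, 11.27 and 11.24 at 10 d and 10.58, 10.42, 10.44 and 10.44 at 48 h, a log2 change of 0.86 (SE 0.12, adjusted p = 2.38e-05), while its other probe set changed by -0.18 and was not called (adjusted p = 0.735). Cryab, the small heat shock protein of the Z-disc, rose by 0.64 (SE 0.10). The regulatory and essential myosin light chains Myl2 (-0.90) and Myl3 (-0.63) had overlapping arrays and lost their calls without sham 10 d replicate 2, among others (adjusted p up to 0.107 and 0.105). Of 13 calcium-handling genes 2 were called each way (30.8% in all). Camk2d, the main calcium/calmodulin kinase of heart, read 10.59, 10.71, 10.31 and 10.73 at 10 d and 9.28, 9.28, 8.34 and 8.30 at 48 h, a log2 change of 1.79 (SE 0.27, adjusted p = 4.1e-05). Fkbp1a, a partner of the ryanodine receptor, fell by 0.62 on the log2 scale (SE 0.12, adjusted p = 6.38e-04), and Hrc, a calcium-binding protein of the sarcoplasmic reticulum, rose by 0.62 (SE 0.16) on the authors' scaling but was not called under median centring (adjusted p = 0.0790). Camk2b changed by -1.07 and was lost on leaving out any of 6 arrays (sham 10 d replicates 1 to 3 and sham 48 h replicates 1 to 3; adjusted p up to 0.109).

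Of 28 matrix glycoprotein and proteoglycan genes, 8 were called higher and 3 lower. That is 39.3% in all, beside 22% of all genes, 11.1% of the collagens and 17.6% of the matrix proteases and inhibitors below. Nid1, the linker of laminin to collagen IV, read 9.59, 9.42, 9.24 and 9.04 at 10 d and 7.39, 7.72, 8.03 and 7.39 at 48 h, a log2 change of 1.69 (SE 0.33), with 2 of the 48 h arrays at the floor, and its call was lost with the 40th percentile floor (adjusted p = 0.430). Lama2, the laminin chain of muscle, rose by 0.84 (SE 0.15, adjusted p = 3.04e-04), and Hspg2, perlecan, by 0.84 (SE 0.15, adjusted p = 2.87e-04). Collagens had 2 of 18 genes called lower and none higher: Col4a2, of the basement membrane, fell by 0.75 on the log2 scale (SE 0.14, adjusted p = 4.2e-04), and Col5a1, of fibrils, fell by 0.68 on the log2 scale (SE 0.16, adjusted p = 0.00266), while its other probe set changed by 0.32 and was not called (adjusted p = 0.199). Postn, periostin, a matricellular protein of activated fibroblasts, read 11.35, 11.02, 11.001 and 10.72 at 10 d and 11.87, 11.97, 12.32 and 11.98 at 48 h. The groups did not overlap and the log2 change was -1.01 (SE 0.33, adjusted p = 0.0308), but the call was lost on leaving out any of 6 arrays (sham 10 d replicates 2 to 4 and sham 48 h replicates 2 to 4; adjusted p up to 0.0838). Of 17 matrix proteases and inhibitors, Ctsl, a lysosomal cathepsin, fell by 0.88 on the log2 scale (SE 0.22), Adam15, a membrane metalloprotease, changed by 0.57 (SE 0.16; not called under median centring, adjusted p = 0.0915), and Ctsc changed by -0.81 (not called without sham 10 d replicate 4, adjusted p = 0.0541). Of 16 fibroblast markers 4 were called higher and 1 lower, but only 7 changed by more than 0 and the list's median log2 change was -0.13. Their summed intensity, in which bright members weigh most, ran from 202366.5 to 223282.8 at 10 d and from 171349.5 to 198025.4 at 48 h. The part of fibroblasts in the matrix values was not tested.

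**Figure D3:**
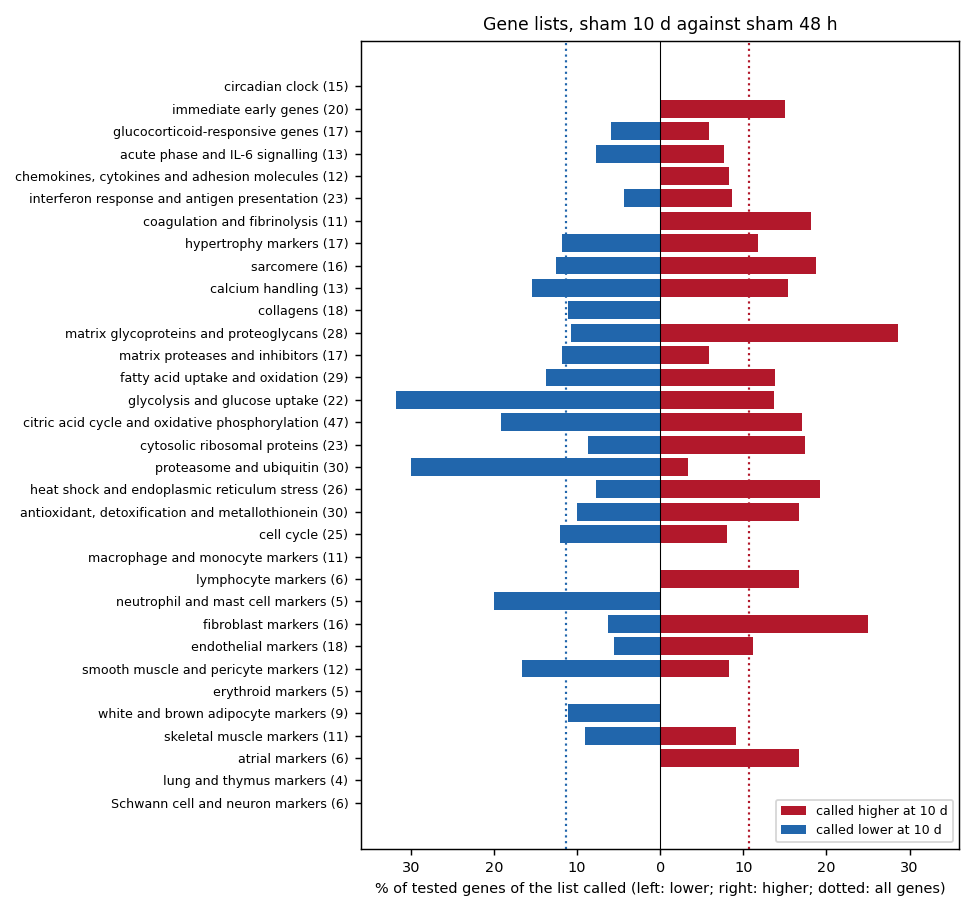
Bars give the percentage of each list's tested genes (number in brackets) called higher (right, red) or lower (left, blue) at 10 d against 48 h in sham hearts, and dotted lines the 10.7% and 11.3% over all 5564 genes. The matrix glycoprotein list reaches furthest to the right and the glycolysis and proteasome lists furthest to the left, while the clock and macrophage lists have no bar.

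The inflammatory, stress-response and cell cycle lists held 11 to 25 tested genes each, of which 8.33% to 20% were called, beside 22% of all genes. Of 12 chemokine, cytokine and adhesion genes only Csf1, the macrophage growth factor, was called (0.49), and not without sham 10 d replicate 3 or 4 or sham 48 h replicate 3 (adjusted p up to 0.152). Of 13 acute phase genes 1 was called each way, Il6ra above and Lcn2, a neutrophil and acute phase protein, at -0.65, whose arrays overlapped and whose call was lost without any of 6 of them (sham 10 d replicates 1, 3 and 4 and sham 48 h replicates 1, 3 and 4; adjusted p up to 0.129). Of 17 glucocorticoid-responsive genes 1 was called each way. Klf9, a direct target of the receptor, read 14.20, 13.92, 14.17 and 13.99 at 10 d and 13.004, 12.65, 13.38 and 13.36 at 48 h, a log2 change of 0.97 (SE 0.17, adjusted p = 1.77e-04), and its other probe set changed by 0.45 and was not called (adjusted p = 0.0973). Of 23 interferon and antigen presentation genes 2 were called higher and 1 lower. Tapbp, the peptide-loading tapasin, rose by 0.66 (SE 0.14, adjusted p = 0.0019), with 0.23 and 0.20, not called, for its other 2 probe sets, whereas H2-Ab1, a class II chain (0.70), and Ifi27 (-0.40) each lost their call without 1 of several arrays, sham 10 d replicate 2 and sham 48 h replicate 3 among them (adjusted p up to 0.0907 and 0.113). Of 20 immediate early genes 3 were called higher, Nr4a1, Jund and Atf3, and none lower. Jund, an AP-1 subunit, rose by 0.90 (SE 0.14, adjusted p = 4.4e-05), and Atf3, a stress-induced factor, changed by 1.11 (adjusted p up to 0.0930 on leaving out single arrays, sham 48 h replicate 1 among them), while Fos (0.02, SE 0.68) and Egr1 (0.26, SE 0.26) were not called. Of 11 coagulation genes, Plg, plasminogen, rose by 1.90 (SE 0.33, adjusted p = 2.1e-04), with 1 of the 48 h arrays at the floor (0.88 with the 40th percentile floor), and Thbd, thrombomodulin, changed by 0.62 (adjusted p up to 0.111 without single arrays, sham 10 d replicate 3 among them). The other probe sets of Lcn2 (0.41), Atf3 (0.33) and Thbd (-0.02) were not called. Of 25 cell cycle genes, Pcna, the sliding clamp of replication, changed by 0.71 (SE 0.18) and Ccng1 by 0.51 (SE 0.13), both not called under median centring (adjusted p = 0.0609 and 0.123), Ccnd3, a cyclin of G1, fell by 0.57 on the log2 scale (SE 0.11), and Mcm4 changed by -0.68 and lost its call without any of 6 arrays (sham 10 d replicates 1, 3 and 4 and sham 48 h replicates 1 to 3; adjusted p up to 0.197).

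No gene of the circadian clock was called by limma over all 26 arrays, 0 of 15, with 3 at an unadjusted p below 0.05. The 4 with the lowest p-values or no overlap are given here. Per1, a repressor of the clock loop, read 12.09, 12.04, 12.12 and 11.80 at 10 d and 10.82, 10.94, 11.66 and 10.23 at 48 h (log2 change 1.10, SE 0.40, adjusted p = 0.0510), and Nr1d1, the REV-ERB repressor, changed by 0.46 (SE 0.17, adjusted p = 0.0517). Dbp, a clock output factor, read 12.65, 12.66, 12.71 and 12.46 at 10 d and 11.58, 12.28, 11.92 and 11.99 at 48 h, without overlap (log2 change 0.68, SE 0.47, adjusted p = 0.319), and Tef, a relative of Dbp, changed by 0.60 (SE 0.27, adjusted p = 0.117). With the spread taken from the 8 sham arrays alone, Per1 (adjusted p = 0.00981), Dbp (0.00768), Tef (0.0172) and Nr1d1 (0.0485) were all called, and with the 40th percentile floor Per1 (0.0487) and Nr1d1 (0.0498) were. Arntl, the activator of the loop, changed by 0.34 (SE 0.41), Clock by -0.01 (SE 0.21), Per3 by 0.29 (SE 0.22), Nr1d2 by 0.13 (SE 0.22) and Nfil3 by -0.10 (SE 0.23), none called. The hour of the day at which hearts were taken is not given in the labels used here.

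Markers of other cell types are given for what else the tissue could hold, to be read beside the 22% of all genes called. None of 11 macrophage markers was called by limma or had an unadjusted p below 0.05, with summed intensities of 48150.9 to 50183.9 at 10 d and 47593.8 to 53449.5 at 48 h. The levels of C1qa were 13.60, 13.52, 13.54 and 13.56 at 10 d and 13.62, 13.79, 13.56 and 13.64 at 48 h, which overlapped. Of 18 endothelial markers 2 were called higher and 1 lower: Cdh5, VE-cadherin, changed by 0.48 (SE 0.12; not called under median centring, adjusted p = 0.131), Pecam1 by 0.86 (lost without sham 10 d replicate 2 or sham 48 h replicate 1, adjusted p up to 0.0731), and Cldn5, a tight junction protein, by -0.53. Of 12 smooth muscle and pericyte markers, Rgs5, a pericyte gene, read 12.30, 12.45, 12.36 and 12.30 at 10 d and 11.29, 11.59, 10.96 and 11.42 at 48 h, a log2 change of 1.04 (SE 0.15, adjusted p = 3.66e-05). Mylk, the myosin light chain kinase, fell by 0.83 on the log2 scale (SE 0.11), and Acta2 changed by -0.72 (adjusted p up to 0.101 without single arrays, sham 10 d replicate 2 among them). Atrial tissue was uneven: the summed intensity of 6 atrial markers ran from 12972.5 to 132767.9 at 10 d and from 8972.7 to 23543.8 at 48 h, and Myl7, an atrial light chain, averaged 13.15 ± 2.05 at 10 d (SD, n = 4) and changed by 1.41 (SE 1.49). Its part in the rise of Pam, itself an atrial marker, was not tested. Of 11 skeletal muscle markers Tnnc2, a fast troponin C, rose by 1.59 (SE 0.34; 0.83 with the 40th percentile floor) and Pvalb, parvalbumin, fell by 0.77 on the log2 scale (SE 0.19). Cidea, a fat droplet protein, fell by 0.54 on the log2 scale (SE 0.12), the 1 call among 9 adipocyte markers. Among lymphocyte markers Ighm, the heavy chain of IgM, changed by 0.48, and by 0.21 on its other probe set, which was not called (for the first, adjusted p up to 0.0773 without single arrays, sham 10 d replicate 1 among them). Erythroid (5), lung and thymus (4), Schwann and neuron (6) and mesothelial (1) markers held no call by limma, with 1, 1, 1 and 0 of them at an unadjusted p below 0.05.

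The same interval was measured in TAC hearts, whose arrays at 10 d and 48 h share no array with the sham groups. There 1797 of 7297 probe sets (24.6%) were called, 964 higher (13.2%) and 833 lower (11.4%), or 526 higher and 1490 lower under median centring, and 1474 of the 1580 sham calls (93.3%) had the same sign in TAC, as had 67.3% of the probe sets not called in sham. Of the sham calls 900 were called with the same sign in TAC, which is 57% of the sham calls and 50.1% of the TAC calls, and 7 were called with the opposite sign. Across probe sets the changes correlated at r = 0.63, a description over points that share arrays and scan days. Of the 4 TAC 10 d arrays 3 shared the scan day of the sham 10 d arrays, and replicate 4 was scanned 14 d later on another chip lot. All 5 TAC 48 h arrays carried the scan day of the sham 48 h arrays, so the TAC interval spans the same gap between scan days, for replicate 4 as well, and time and scan day cannot be told apart there either. On that array alone, 89.7% of the sham-called probe sets lay on the sham side of the TAC 48 h mean, as did 89.2% to 93.5% on the other three. Ppara changed by 1.69 in TAC (SE 0.15, adjusted p = 2.83e-08), Bnip3 by -1.58 (SE 0.16, adjusted p = 9.81e-08) and Hif1a by -0.56 (SE 0.14, adjusted p = 0.00349). Of the 12 largest sham rises 7 were called higher in TAC, and of the 12 largest falls 3 were called lower.

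**Figure D4:**
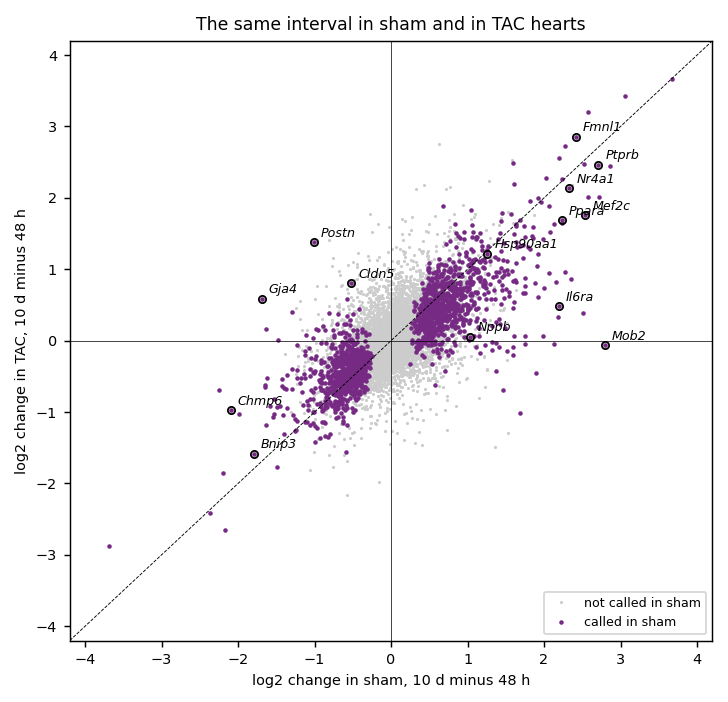
The log2 change from 48 h to 10 d in sham hearts (x axis) against that in TAC hearts (y axis), 1 point per probe set, purple where called in sham; the dashed line marks equal change. Most purple points lie in the lower left and upper right, and Postn and Cldn5 lie in the upper left.

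The difference between the intervals, TAC minus sham, was called for 7 of 7297 probe sets (0.0959%; 770 at an unadjusted p below 0.05), 6 higher (0.0822%) and 1 lower (0.0137%), of which 6 name 1 gene. Leaving out 1 sham array gave 4 to 15 calls, 4 of them without sham 10 d replicate 4 and 15 without sham 48 h replicate 1. Postn read 13.08, 14.51, 14.02 and 14.10 in TAC at 10 d and 13.02, 12.52, 11.99, 13.48 and 11.73 in TAC at 48 h, a log2 change of 1.38, against -1.01 in sham, a difference of 2.39 (SE 0.46, adjusted p = 0.0216). Cldn5 changed by 0.81 in TAC and -0.53 in sham, a difference of 1.33 (SE 0.23, adjusted p = 0.0106). The sham call of Cldn5 was itself lost on leaving out any of 5 arrays (sham 10 d replicates 2 to 4 and sham 48 h replicates 1 and 3; adjusted p up to 0.0765). The next 4 genes were chosen after their values were seen. H2az1, a variant histone, changed by 0.59 in TAC and -0.58 in sham, and Art3, an ADP-ribosyltransferase, by -0.42 in TAC and 0.70 in sham. Col4a1 and Cd93, a vascular lectin, changed by 1.09 and 1.02 in TAC and by 0.09 and -0.05 in sham, where neither was called and the sign turned for Col4a1 under median centring (-0.12) and for Cd93 under loess (0.0019). Nppb changed by 0.06 in TAC and by 1.03 in sham, with a difference of -0.98 (SE 0.28, adjusted p = 0.181) that was not called; at 48 h its TAC arrays ran from 16.05 to 17.24, all above the 14.28 to 15.08 of the sham arrays.

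Sham hearts at 3 wk, of which 2 of 4 arrays are dated, to a day that no 10 d or 48 h array shares, add a later time that shares the 48 h and 10 d arrays with the comparisons they enter. Against sham 48 h, 2427 of 7297 probe sets (33.3%) were called at 3 wk, 1388 higher (19%) and 1039 lower (14.2%), and against sham 10 d 209 (2.86%), 78 higher (1.07%) and 131 lower (1.8%), or 94 in all without sham 10 d replicate 4. Under median centring the split was 511 higher and 2359 lower against 48 h, and 38 higher and 350 lower against 10 d, and under quantile normalization it was 976 higher and 1164 lower against 48 h. Bnip3 averaged 13.48 at 48 h, 11.69 at 10 d and 11.82 at 3 wk in sham hearts, and Hif1a 13.88, 12.94 and 12.74 at the same times. Ppara averaged 10.03, 12.26 and 11.38, and was lower at 3 wk than at 10 d (log2 change -0.88, SE 0.16, adjusted p = 0.00266). Fmnl1 averaged 8.48, 10.89 and 8.14, and differed between 3 wk and 10 d by -2.75 (SE 0.41, adjusted p = 8.87e-04) but not detectably between 3 wk and 48 h (-0.33, SE 0.41). Dbp averaged 11.94, 12.62 and 11.05, and Per1 10.91, 12.01 and 11.06.

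Many genes have several probe sets, which give a check on single ones. Over 1020 pairs from 889 genes, the changes of the representing and the other probe set correlated at r = 0.11 across pairs, which are not independent. Where the representing one was called (276 pairs), the other had the same sign in 133 (48.2%). Where both were called (55), 30 agreed in sign and 25 did not. In nearly all of these 25 the representing probe set, which is the brighter, was lower at 10 d and the other higher. Only AI506816 and Ssr3 went the other way. The median log2 change was 0.20 in the bin of lowest signal and -0.06 in that of the highest. The part of signal in the disagreement was not tested. Where neither was called (608 pairs), 47.0% had the same sign, so a call told little about the sign of the gene's other probe set. In TAC minus sham at 10 d, a comparison mostly within 1 scan day, 4.87% of probe sets were called. There the other probe set had the same sign in 48 of 63 pairs (76.2%), and all 16 pairs with both called had the same sign, with r = 0.33. The comparisons also differ in treatment and in number of calls, and the reason for the difference in agreement was not tested. Lpl, lipoprotein lipase, is an example chosen after its values were seen: its representing probe set changed by -0.64 (adjusted p = 0.0435; lost on leaving out any of 5 arrays, sham 10 d replicate 2 among them, adjusted p up to 0.165) and its other by 2.52 (adjusted p = 3.09e-06). By contrast 26 genes had several probe sets called in 1 direction, 11 higher and 15 lower. Many of these probe sets bear neighbouring numbers on the array, and whether they share probes was not tested. Of the 26 genes, Ddx6 and Psap were chosen after their values were seen. Among the higher ones Ddx6, an RNA helicase of P-bodies, had all 3 called at 0.84 to 2.57, and Mef2c and Rgs5 belong to them. Among the lower ones Psap, the saposin precursor of lysosomes, had all 3 called at -0.46 to -0.75, and Hif1a both.

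**Figure D5:**
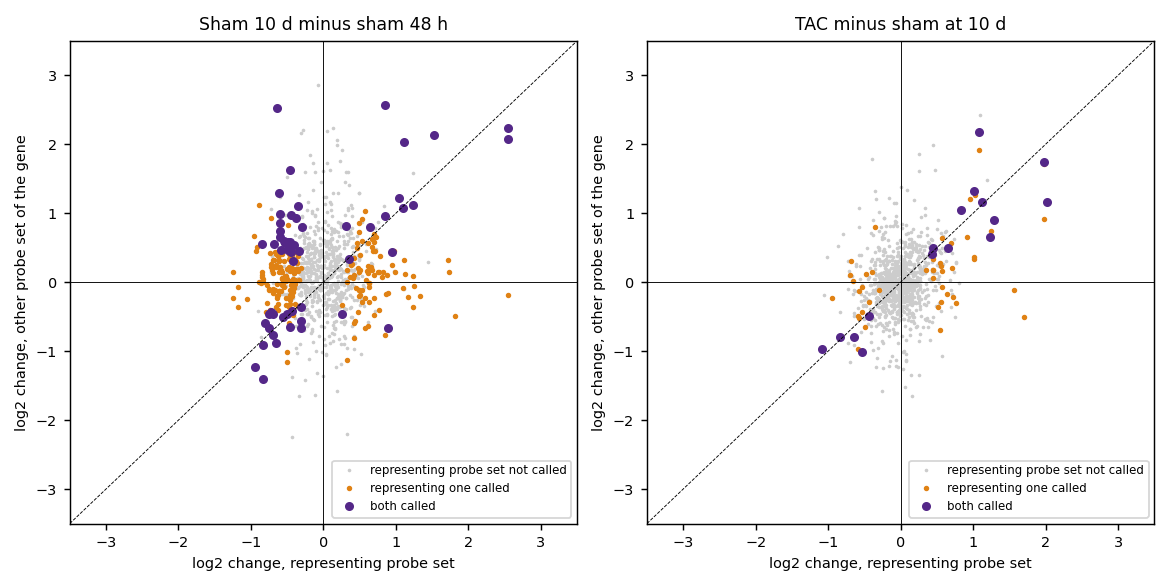
The log2 change of each gene's representing probe set (x axis) against that of its other probe set (y axis), sham 10 d minus sham 48 h on the left and TAC minus sham at 10 d on the right; purple points have both called. On the left 25 of 55 purple points lie off the diagonal's quadrants, and on the right none of 16 does.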

How the data were processed

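RNA of mouse heart was hybridised to Affymetrix MG_U74Av2 arrays, per the file headers. The deposited values are linear signal intensities per probe set, whose trimmed mean is nearly equal on all arrays; how the authors summarised and scaled the probe signals was not given in the sources used here. Scan days, chip lots and scanner types were read from the scanner parameter files.

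Intensities were floored at the 20th percentile of all values (167.9), turned into log2, and 7297 of 12422 probe sets above 880.1, the median of all values, in at least 4 arrays were kept. The 6 group means of all 26 arrays were fitted in limma 3.58.1 (R 4.3.3; empirical Bayes with an intensity trend), with Benjamini-Hochberg adjustment over all probe sets. A fold is on the floored scale and understates the change of dim probe sets. Probe sets were named by the platform annotation (10833 with 1 gene, 396 with several, 1193 with none), and the one of highest mean represents a gene. Precision is limited by the number of arrays. On simulated data with the residual spread of the fit to all 26 arrays, 72% of 2-fold and 92% of 4-fold changes were recovered. That simulation changed 200 of 7297 probe sets, fewer than were called here, and set no floor, so its shares may not hold for the sham comparison.

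Named genes are the 12 largest rises and falls among calls without overlap, up to 4 called members of each list (or the 2 brightest) and the clock genes; others are said to be chosen after their values were seen. The members and lists were chosen with earlier results of these data known. Alternatives were other scalings, floors, filters, test settings, array subsets and each sham array left out; the values of TAC 10 d replicate 4 alone and of further probe sets of a gene were added after seeing the data. No sequence beyond promoters was used.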

Additional observations from a re-analysis of the deposited data

Results flagged for a closer look

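A sample stood apart from the other 3 of its group, by Dixon's ratio of its gap to the range, in 12 of 260 groups of 4 arrays (130 named genes at both times), and chance alone gives about 1 in 20. In sham 10 d hearts these were Gja4 in replicate 3 (9.96, next 8.66, ratio 0.863), Dpp7 in replicate 2 (8.67, next 7.67, ratio 0.896), Txndc5 in replicate 1 (9.33, next 11.1, ratio 0.831), Tef in replicate 3 (13.31, next 13.73, ratio 0.914), Col5a1 in replicate 1 (11.43, next 11.66, ratio 0.839) and Cat in replicate 2 (12.73, next 12.23, ratio 0.871). In sham 48 h hearts they were Bnip3 in replicate 1 (13.77, next 13.4, ratio 0.922), Gja4 in replicate 3 (10.97, next 10.48, ratio 0.908) and Cox6c in replicate 4 (15.02, next 15.55, ratio 0.877). Mob2 and Mup5 in replicate 4 and Pde6b in replicate 2 of sham 48 h had a ratio of 1, because the other 3 arrays were at the floor.

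The change over the interval differed between TAC and sham hearts for 7 probe sets by the test of the difference itself: Postn by 2.393, Cldn5 by 1.333, H2az1 by 1.163, Cd93 by 1.067, Col4a1 by 1.003, a probe set that names no single gene by 0.863, and Art3 by -1.122 (log2, TAC minus sham).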

How the results depend on the processing

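The number of calls between sham 10 d and sham 48 h was 1352 to 1911 under the other scalings, floors, filters, test settings and array subsets, 1347 with replicate number as a block (the numbers share only a name: same-number arrays had correlations of deviations of -0.014 to 0.0593, and 1 of 4 correlated best with its own number), and 1281 to 1379 with 1 sham array left out. No main call changed sign under any of the 23 settings. Of 108 called named genes 66 stayed called throughout, 42 were lost in some setting and 33 on leaving out 1 array.

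The difference between TAC and sham gave 25 calls with the 70th percentile filter, 4 without the intensity trend, 34 with array weights and 4 to 15 without 1 sham array; the cause was not tested. Sham 3 wk against 10 d gave 388 calls (38 higher, 350 lower) under median centring and 94 to 211 without 1 array. Under median centring the spiked controls differed by 0.798 (bioB), 0.857 (bioC), 1.146 (bioD) and 0.452 (cre), with adjusted exact p-values of 0.0571, 0.0571, 0.0571 and 0.171.

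Some changes that were not called turned sign. C1qc was 0.0866 with quantile and 0.0427 with loess normalization, and -0.0891 to 0.111 without 1 array. Dntt was -0.0347, -0.0670 and -0.0760 under quantile, loess and median scaling. Eif2s3y was 0.0037 and Clock 0.0225 with array weights, Nr1d2 -0.0797 and Col4a1 -0.120 under median centring, and Cd93 0.0019 with loess.

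Leaving out 1 array gave -0.0092 to 0.239 for Dntt, -0.165 to 0.146 for Eif2s3y, -0.0784 to 0.124 for Clock, -0.214 to 0.0429 for Nfil3 and -0.151 to 0.0134 for Cd93. Depth is not defined for arrays; dim probe sets near the floor give only a lower limit to a fold.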
